A study of Mus musculus with 6 samples.

Results

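The extracellular matrix and stellate cell genes described here are 37 genes chosen by name for their function: 13 collagen chains, the proteoglycans, crosslinking enzymes and glycoproteins that accompany them, matrix metalloproteinases and their inhibitors, markers of hepatic stellate cells, and the profibrotic ligand gene Tgfb1. They were picked with earlier results of these data known. All 37 were found among the 23474 genes of the deposited table. Of these, 36 were above 0 in at least 1 library, and 30 had a mean of at least 1 FPKM (fragments per kilobase of transcript, scaled to the fragments mapped in the library) and were tested. Liver mRNA came from male C57BL/6J mice that all ate a high-fat diet from 5 weeks of age for 12 weeks. One group (HFD) received that diet alone. The other (BT) received it with 1.5% (w/w) Bangpungtongseong-san extract, an oriental herbal medicine that the study set against non-alcoholic fatty liver disease. The study kept 20 mice, 10 per group, and 3 libraries per group from 17-week-old mice were analysed. Both groups carry the high-fat diet, and mice on another diet were not analysed here. The labels leave unsaid if each library is a single mouse or pooled tissue. The p-values therefore reflect only how far these libraries scatter, which may be technical. The library codes in the labels carry the letter D in HFD and R in BT. What the letter stands for is not said, and it cannot be told apart from diet.

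The liver's matrix is made by few cells. Hepatic stellate cells, which store retinoids in the resting organ, turn into contractile myofibroblasts on injury and then secrete collagens I and III, the main scar collagens. Lysyl oxidases crosslink the fibrils, matrix metalloproteinases cut them and TIMPs inhibit those enzymes, while hepatocytes release adhesive glycoproteins such as vitronectin and plasma fibronectin into blood. In a fatty liver on a high-fat diet these transcripts are read as signs of early fibrosis.

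The libraries held an estimated 13.8 to 15.8 M fragments, a rough figure read from the smallest values. The hepatocyte marker Ttr stood at 3003 to 5937 FPKM, but Alb is listed at 0 in HFD replicate 3, so an exact 0 in this table can be a failed estimate. Among stellate markers, Lrat and Gfap are listed at 0 in all 6 libraries and nothing was read from these zeros. The stellate genes Reln, Colec11 and Rgs5 were present in every library, at 7.81 to 11.3, 13.4 to 26.0 and 6.89 to 10.6 FPKM. HFD replicate 1 was the lowest HFD library for 26 of the 36 genes above 0 and is left out again beside the results that rest on it. Leaving it out raises the HFD mean of those 26 genes.

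Most of these genes had lower mRNA in BT livers. Of the 30 tested, 4 fell and 2 rose by limma at a Benjamini-Hochberg adjusted p under 0.05, and 24 did not pass. Col3a1, Sparc, Mgp and Tagln fell, while Col27a1 and Fn1 rose. Of all 10476 genes tested, 7.33% fell and 6.01% rose, or 13.3% in either direction. Against this, 13.3% of the 30 fell and 6.67% rose, counts too small to set the list apart. In this list, picked with earlier results of these data known, the sign was less even than the calls. The 30 log2 changes were below 0 in 26 genes (86.7%), against 40.8% of all genes tested. Their median was -0.42 in log2(FPKM + 1) units, in which low genes appear to change less than they do, beside a median of 0.07 over all genes tested. It was -0.25 without HFD replicate 3 and -0.19 over the 13 genes that passed a filter of 5 FPKM. The BT values lay wholly below the HFD values in 11 of the 30 (36.7%), where 16.1% of all genes tested did so, and wholly above in 2 (6.67%), where 23.2% did so. In bulk tissue, fewer cells of a type and less RNA per cell cannot be told apart.

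**Figure D1:**
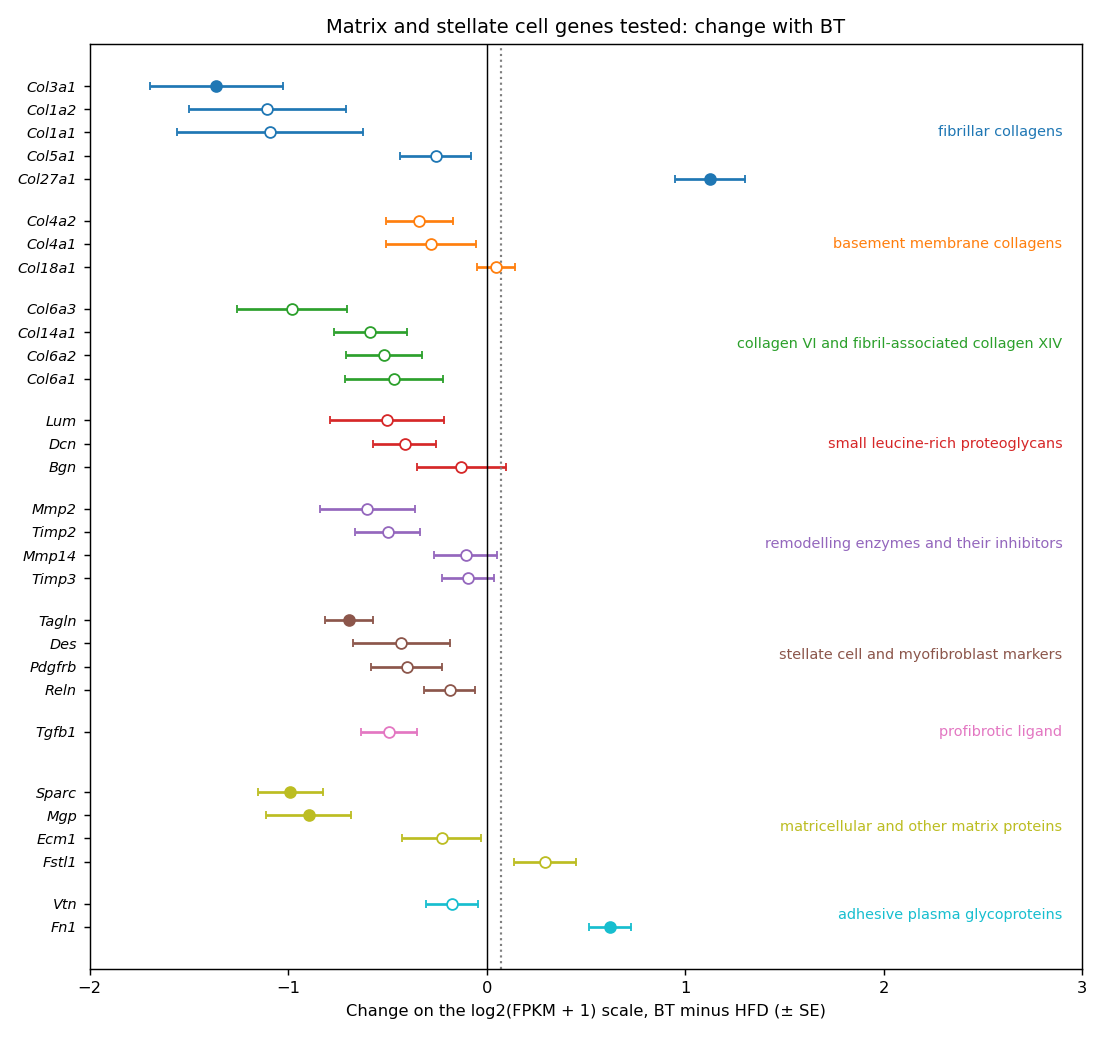
Change of the 30 tested genes with BT, as BT minus HFD on the log2(FPKM + 1) scale with limma's SE (n = 3 libraries per diet), grouped and coloured by role. Filled points passed an adjusted p of 0.05, the dotted line is the median of all genes tested (0.07), and 26 of the 30 points lie left of 0.

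The number of calls rested on single libraries. Without HFD replicate 1, 11 genes were lower and 2 higher (7.75% and 5.31% of all genes). Without HFD replicate 2 the counts were 2 and 2 (3.78% and 2.11% of all), and without HFD replicate 3 also 2 and 2 (6.51% and 8.2%). Without BT replicate 1 they were 0 and 1 (1.19% and 0.458%), without BT replicate 2, 1 and 1 (2.14% and 0.992%), and without BT replicate 3, 4 and 2 (3.67% and 1.97%). With no filter on low values 2 genes were lower and 2 higher (2.02% and 1.17% of all), and with a filter of 5 FPKM also 2 and 2 (11.3% and 8.81%). Median-of-ratios scaling gave 8 and 2 (8.23% and 4.38%) and a replicate block 11 and 2 (9.06% and 8.2%). The split of 630 higher and 768 lower over all genes moved to 459 and 862 with median-of-ratios scaling, to 621 and 558 after every library was brought to one total, and to 1361 and 542 when that total left out Alb and mt-Co1. The 6 genes called kept their direction in each of these scalings. Bgn, Timp3 and Mmp14 turned slightly positive when the total left out Alb and mt-Co1 (0.01, 0.01 and 0.02), which left 23 of 30 below 0, and Col18a1 turned slightly negative with median-of-ratios scaling (-0.02).

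The fibrillar collagens, which form the cables of the interstitial matrix, gave both the largest fall and the largest rise. Col3a1, the chain of collagen III (chromosome 1, 45311538 to 45349706), stood at 7.15, 14.3 and 19.6 FPKM with HFD and at 2.94, 4.29 and 6.23 FPKM with BT. Every BT library was below every HFD library, although HFD replicate 1 came close to BT replicate 3. The means of 13.7 ± 6.24 and 4.48 ± 1.66 FPKM (SD, n = 3 each) are 3.05-fold apart, and the log2 change was -1.36 ± 0.34 (SE, limma adjusted p = 0.0354). It missed the threshold without HFD replicate 2, HFD replicate 3, BT replicate 1 or BT replicate 2 (adjusted p = 0.0682 to 0.121), and with no filter on low values (adjusted p = 0.0964).

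Col1a1 and Col1a2, the 2 chains of collagen I, had differences of like size but wider spread. Col1a1 (chromosome 11, 94936224 to 94953042) was at 1.60, 5.50 and 8.27 FPKM with HFD and at 0.700, 1.29 and 3.14 FPKM with BT. Col1a2 (chromosome 6, 4504814 to 4541544) was at 3.33, 7.87 and 11.5 FPKM with HFD and at 1.51, 2.48 and 4.50 FPKM with BT. In both genes HFD replicate 1 fell within the BT range, and the other HFD libraries lay above it. The log2 changes of -1.09 ± 0.47 and -1.10 ± 0.40 did not pass (adjusted p = 0.145 and 0.0955). Both passed without HFD replicate 1, their lowest HFD library (adjusted p = 0.0303 and 0.0265). Neither passed when any other single library was left out (highest adjusted p = 0.354 and 0.259). Collagen V is the minor partner that sets fibril width. Its chains Col5a1 (1.58 ± 0.456 and 1.16 ± 0.359 FPKM for HFD and BT) and Col5a2 (0.772 ± 0.321 and 0.506 ± 0.118 FPKM) overlapped between the diets, and Col5a2 lay below the filter.

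Col27a1, a fibrillar collagen known from cartilage (chromosome 4, 63214004 to 63334991), went the other way. It stood at 7.09, 9.18 and 7.94 FPKM with HFD and at 18.3, 24.1 and 14.7 FPKM with BT, with no overlap between the diets. It rose 2.36-fold, from 8.07 ± 1.05 to 19.1 ± 4.74 FPKM, a log2 change of 1.12 ± 0.18 (adjusted p = 0.0111). Of the 6 genes called, Col27a1 alone passed whichever of the 6 libraries was left out (highest adjusted p = 0.0475). Col27a1 was below Col3a1 in all 3 HFD libraries, by little in replicate 1, and above it in all 3 BT libraries, on the FPKM scale, which is per transcript length.

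**Figure D2:**
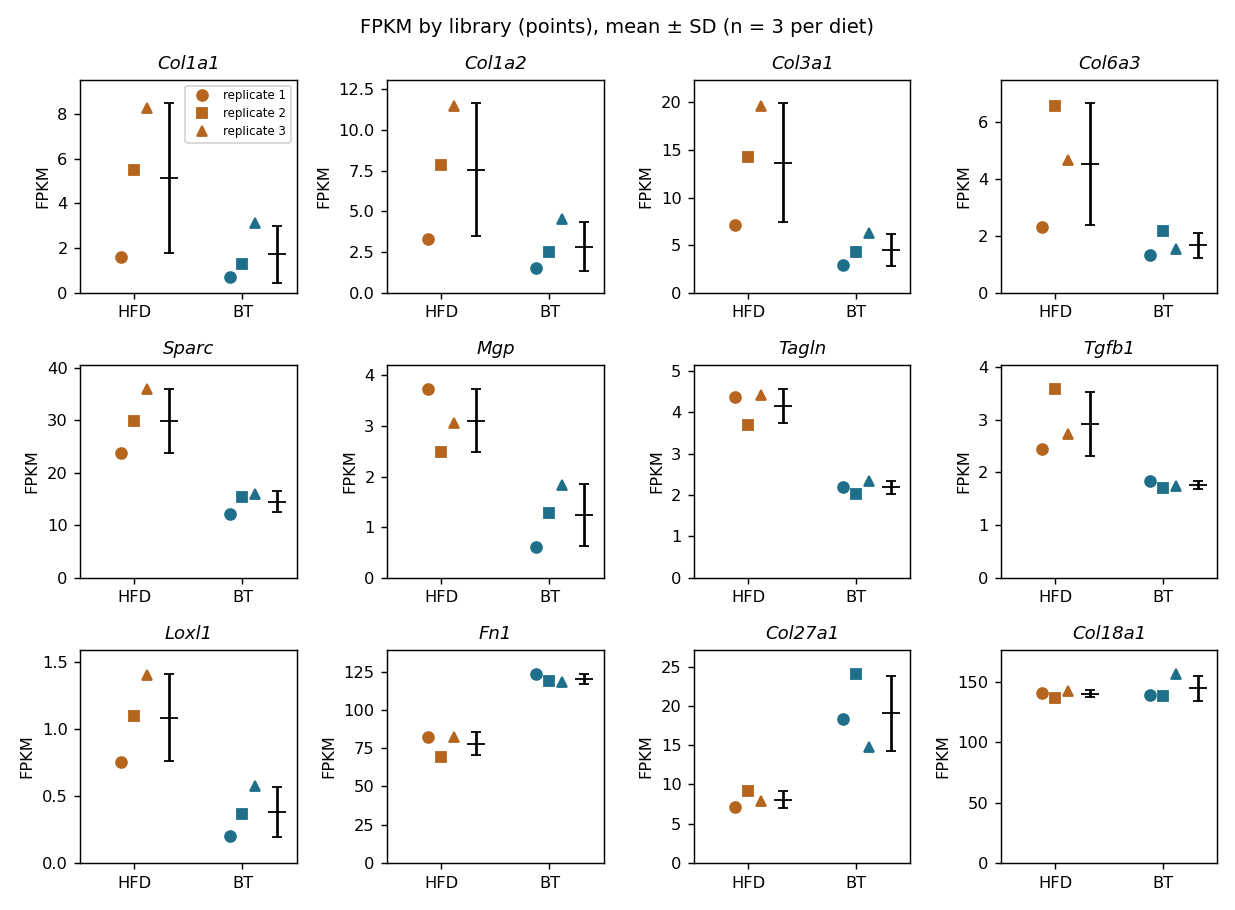
FPKM of 12 genes in each of the 6 libraries (points, shaped by replicate number) with the mean and SD of 3 libraries per diet in black. Col3a1, Sparc, Mgp and Tagln are lower with BT without overlap, Col27a1 and Fn1 are higher, Col1a1 and Col1a2 overlap through HFD replicate 1, and Col18a1 is level.

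The sequence just upstream of the start site is shown for the 2 called collagens, for Sparc and for Col1a2, since these are the genes with the largest differences that have an entry among the RefSeq promoters (GRCm38.p6). Each line gives the 250 bases before the start, 5′ to 3′ on the gene's own strand. These starts are RefSeq's, and for Col1a2, Sparc and Col27a1 they lie 804, 3103 and 1408 bases inside the gene span given in the text. Capitals mark short motifs on either strand. They are CAGAC, a core that Smad proteins bind downstream of TGF-beta, the CCAAT box bound by NF-Y, the TATAAA form of the TATA box, and the GC box GGGCGG bound by Sp1. The windows are chr1:45311288-45311537 (plus strand) for Col3a1, chr6:4505368-4505617 (plus) for Col1a2, chr11:55420081-55420330 (minus) for Sparc and chr4:63215162-63215411 (plus) for Col27a1.
Col3a1: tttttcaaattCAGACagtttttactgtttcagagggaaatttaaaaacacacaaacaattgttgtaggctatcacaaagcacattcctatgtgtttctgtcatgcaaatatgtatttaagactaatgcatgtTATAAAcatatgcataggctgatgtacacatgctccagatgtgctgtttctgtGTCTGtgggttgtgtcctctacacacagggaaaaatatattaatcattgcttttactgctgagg
Col1a2: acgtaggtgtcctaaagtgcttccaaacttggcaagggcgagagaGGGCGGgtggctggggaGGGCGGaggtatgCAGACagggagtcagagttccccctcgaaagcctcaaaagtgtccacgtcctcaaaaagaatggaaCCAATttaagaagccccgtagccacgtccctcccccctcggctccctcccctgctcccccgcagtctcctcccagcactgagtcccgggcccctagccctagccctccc
Sparc: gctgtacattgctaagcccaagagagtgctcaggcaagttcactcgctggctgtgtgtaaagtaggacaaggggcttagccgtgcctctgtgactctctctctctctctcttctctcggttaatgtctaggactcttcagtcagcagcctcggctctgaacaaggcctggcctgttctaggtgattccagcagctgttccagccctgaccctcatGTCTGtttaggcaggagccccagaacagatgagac
Col27a1: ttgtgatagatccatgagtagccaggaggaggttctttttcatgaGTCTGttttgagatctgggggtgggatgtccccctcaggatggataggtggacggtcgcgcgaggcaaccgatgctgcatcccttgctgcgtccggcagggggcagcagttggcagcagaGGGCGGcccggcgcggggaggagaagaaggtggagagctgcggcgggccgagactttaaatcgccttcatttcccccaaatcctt
CAGAC or its reverse complement is in all 4 windows: those of Col3a1 and Sparc, which fell, of Col1a2, which did not pass, and of Col27a1, which rose. It is also in 42.2% of all 32851 windows of the same length, and in 13 of the 27 windows (48.1%) of the 25 member genes with an entry. TATAAA is in the Col3a1 window only of these 4 and in 12.4% of all windows, and CCAAT is in the Col1a2 window only and in 33.8% of all. GGGCGG is in 18 of the 27 member windows (66.7%) and in 32.7% of all. No occurrence of a motif overlaps another here, and a match describes letters, not a bound site.

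None of the 7 other collagen chains passed the test. Collagen VI forms beaded microfilaments around cells, and all 3 of its chains had a lower mean with BT. Col6a3 was at 2.32, 6.58 and 4.66 FPKM with HFD and at 1.31, 2.16 and 1.54 FPKM with BT, without overlap (-0.98 ± 0.28, adjusted p = 0.0512). Col6a1 and Col6a2 differed by -0.47 and -0.52 (adjusted p = 0.227 and 0.104). All 3 chains passed without HFD replicate 1, their lowest HFD library (adjusted p = 0.0119 to 0.0399). None passed in any other such fit in which it was tested (highest adjusted p = 0.484, 0.279 and 0.159 for Col6a1, Col6a2 and Col6a3). Without HFD replicate 3, its highest library, Col6a2 was below the filter and was not tested. Col14a1, which sits on the surface of collagen I fibrils, was at 9.54, 12.2 and 13.6 FPKM with HFD and at 5.55, 8.40 and 8.78 FPKM with BT (-0.59 ± 0.19, adjusted p = 0.0683). Its groups did not overlap either. It passed without HFD replicate 1 (adjusted p = 0.0494) but in no other fit that left out 1 library (highest adjusted p = 0.202).

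The basement membrane collagens, which line vessels and sinusoids as sheets, were closest to level. Col18a1, the source of endostatin, was the most abundant collagen, at 141, 137 and 142 FPKM with HFD and at 139, 139 and 157 FPKM with BT. The difference of 0.05 ± 0.10 was within the spread between libraries (adjusted p = 0.766). Col4a1 and Col4a2, the ubiquitous chains of collagen IV, differed by -0.28 ± 0.23 and -0.34 ± 0.17 (adjusted p = 0.418 and 0.199), and only Col4a2 had groups that did not overlap. Col4a1 and Col4a2 lie head to head on chromosome 8 and overlap at their starts. Other neighbours are Col3a1 and Col5a2, 24614 bases apart on chromosome 1, Dcn and Lum, 46984 bases apart on chromosome 10, and Col6a1 and Col6a2, 85161 bases apart on the same chromosome. Col5a2 was not tested. In the other pairs both genes were below 0, as were 26 of the 30 tested genes, so a shared sign says little about neighbours. Col6a1 and Col18a1, the next pair at 326009 bases, had opposite signs (-0.47 and 0.05).

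The small leucine-rich proteoglycans bind collagen fibrils and space them. Dcn, decorin, was at 74.2, 83.5 and 109 FPKM with HFD and at 56.5, 70.5 and 71.2 FPKM with BT, and the groups did not overlap (-0.41 ± 0.16, adjusted p = 0.116). Lum, lumican, differed by -0.50 ± 0.29 (adjusted p = 0.253) and Bgn, biglycan, by -0.13 ± 0.22 (adjusted p = 0.717). Dcn and Bgn were far more abundant per transcript length than Col1a1, Col1a2 or Col3a1 in all 6 libraries, with Bgn at 37.4 to 68.7 FPKM.

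Sparc and Mgp fell among the 4 matricellular and other matrix proteins. Sparc, a secreted collagen-binding protein (chromosome 11, 55394500 to 55423183), was at 23.8, 29.8 and 36.0 FPKM with HFD and at 12.2, 15.3 and 15.9 FPKM with BT. It fell 2.07-fold, from 29.9 ± 6.10 to 14.4 ± 2.00 FPKM, with a log2 change of -0.99 ± 0.16 (adjusted p = 0.0126), and missed the threshold only without BT replicate 1 (adjusted p = 0.0569) among the fits that left out 1 library. The HFD and BT values were separated by more than the range of the BT group. Mgp, matrix Gla protein, an inhibitor of calcification (chromosome 6, 136872435 to 136875823), was at 3.74, 2.49 and 3.06 FPKM with HFD and at 0.606, 1.28 and 1.84 FPKM with BT. It fell by 0.90 ± 0.22 on the log2 scale (adjusted p = 0.0327) on an estimated 6.26 to 42.3 fragments per library. That call passed in 1 of the 6 fits that left out a library, and it was lost after a correction for transcript length and GC content (-0.52, adjusted p = 0.218) and with no filter on low values (adjusted p = 0.0859).

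Ecm1, a secreted glycoprotein made by hepatocytes that restrains activation of latent TGF-beta, and Fstl1, a secreted follistatin-like glycoprotein, did not pass. Ecm1 was at 72.2, 101 and 92.5 FPKM with HFD and at 56.8, 95.3 and 77.1 FPKM with BT, which overlap (-0.23 ± 0.20, adjusted p = 0.449). Fstl1 was at 2.80, 3.99 and 4.57 FPKM with HFD and at 5.09, 4.44 and 4.88 FPKM with BT (0.29 ± 0.16, adjusted p = 0.227), 1 of the 4 tested genes with a positive sign, beside Col27a1, Fn1 and Col18a1.

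The adhesive glycoproteins that hepatocytes release into plasma parted. Fn1, fibronectin (chromosome 1, 71585520 to 71653200), was at 82.4, 69.2 and 82.4 FPKM with HFD and at 124, 119 and 118 FPKM with BT. The BT libraries lay close together and well above the HFD libraries. Fn1 rose 1.54-fold, from 78.0 ± 7.59 to 120.2 ± 3.10 FPKM (0.62 ± 0.10, adjusted p = 0.0129), and missed the threshold without BT replicate 1 or BT replicate 2 (adjusted p = 0.0663 and 0.0511). Vtn, vitronectin, was the most abundant of the 37 genes, at 906, 1150.1 and 912 FPKM with HFD and at 862, 928 and 825 FPKM with BT, and the groups overlapped (-0.18 ± 0.13, adjusted p = 0.376). Vtn alone made up 57.4% to 65.7% of the summed FPKM of the 37 genes, so that sum is mostly a measure of Vtn.

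The crosslinking enzymes were below the filter and were not tested. Loxl1, a lysyl oxidase active on elastin and collagen, was at 0.752, 1.10 and 1.41 FPKM with HFD and at 0.202, 0.362 and 0.578 FPKM with BT. Lox, the founding lysyl oxidase, was at 0.155, 0.104 and 0.326 FPKM with HFD and at 0.0510, 0.0187 and 0.0922 FPKM with BT, an estimated 1.34 to 24.1 fragments per library. In both genes each BT library was below each HFD library. Of the 6 genes above 0 and under the filter, Lox, Loxl1 and Acta2 had groups that did not overlap. Of all 17095 genes above 0, 12.3% had BT wholly lower. Most of those 17095 passed the filter, so that share is not a like background for these 6. None of the 6 passed in the fit with no filter (adjusted p = 0.0808 to 0.818).

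Among remodelling enzymes and their inhibitors, 4 genes were tested and none passed. Mmp2, gelatinase A, was at 0.807, 1.39 and 2.56 FPKM with HFD and at 0.398, 0.798 and 0.757 FPKM with BT (-0.60 ± 0.24, adjusted p = 0.124). It passed without HFD replicate 1 (adjusted p = 0.0455) but in no other such fit in which it was tested (highest adjusted p = 0.308). Without HFD replicate 3, its highest library, Mmp2 was below the filter and was not tested. Mmp14, the membrane protease that activates pro-Mmp2, was at 6.53, 6.99 and 8.84 FPKM with HFD and at 5.68, 6.62 and 8.33 FPKM with BT (-0.11 ± 0.16, adjusted p = 0.670). The Mmp2 groups did not overlap and the Mmp14 groups did. Timp2, an inhibitor that also takes part in Mmp2 activation, was at 2.71, 2.23 and 3.81 FPKM with HFD and at 1.55, 1.77 and 1.90 FPKM with BT (-0.50 ± 0.16, adjusted p = 0.0756), without overlap. Timp3, the matrix-bound inhibitor, differed by -0.09 ± 0.13 (adjusted p = 0.645), and exons of Syn3 cover 21.3% of its exon bases. Timp1, which rises in fibrotic liver, was below the filter at 0.367, 1.05 and 1.81 FPKM with HFD and at 0.302, 0.290 and 0.954 FPKM with BT, which overlap.

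Stellate cell and myofibroblast markers had 1 of 4 tested genes lower and none higher, against 7.33% and 6.01% of all genes, a count too small to read further. The called gene shares most of its exon bases with other genes. Tagln, an actin-binding protein of contractile cells (chromosome 9, 45929619 to 45936058), was at 4.38, 3.69 and 4.42 FPKM with HFD and at 2.19, 2.02 and 2.35 FPKM with BT. It fell by 0.70 ± 0.12 on the log2 scale (adjusted p = 0.0137), with means 1.91-fold apart and no overlap. Exons of Gm48529 and Pcsk7 cover 67.9% of its exon bases and no strand setting is given, so its value is uncertain. The call was lost without BT replicate 1 or BT replicate 2 (adjusted p = 0.0636 and 0.0553) and after the length and GC correction (-0.47, adjusted p = 0.0727).

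Acta2, the smooth muscle actin that defines activated stellate cells, was too low to be tested, at 1.26, 0.591 and 1.14 FPKM with HFD and at 0.525, 0.321 and 0.548 FPKM with BT. Its BT libraries were all below its HFD libraries. Pdgfrb, the receptor for the main growth signal of stellate cells, differed by -0.40 ± 0.18 (adjusted p = 0.159), and Des, the muscle-type intermediate filament, by -0.43 ± 0.24 (adjusted p = 0.252). In Des only HFD replicate 2 stood out, at 4.16 FPKM against 1.38 to 2.00 FPKM in the other 5 libraries. Reln, a marker of stellate cells, was at 10.7, 9.09 and 11.3 FPKM with HFD and at 7.81, 9.75 and 9.41 FPKM with BT (-0.19 ± 0.13, adjusted p = 0.340). Pdgfra, below the filter, was at 0.776 to 1.22 FPKM and 0.598 to 1.07 FPKM, which overlap.

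Tgfb1, the ligand that drives collagen synthesis in stellate cells (chromosome 7, 25687002 to 25705077), was at 2.43, 3.59 and 2.72 FPKM with HFD and at 1.85, 1.70 and 1.74 FPKM with BT. The BT libraries were nearly level with each other and below all HFD libraries. The change of -0.49 ± 0.14 just missed the threshold (adjusted p = 0.0511). It passed without HFD replicate 1 (adjusted p = 0.0437), without a variance trend and with median-of-ratios scaling. It did not pass in any other fit that left out 1 library (adjusted p = 0.0623 to 0.144). Nor did it pass with no filter on low values (adjusted p = 0.104) or after scaling to one total (0.0739).

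Set side by side, the 12 tested collagens had a median change of -0.49, with 10 below 0, where 40.8% of all genes were, and 1 fallen and 1 risen, where 7.33% and 6.01% of all genes were. Each count, 1 of 12, is near that background. The 4 remodelling genes had a median of -0.30 and the 4 stellate and myofibroblast markers one of -0.42, with all 8 below 0. Without HFD replicate 3, where Mmp2 was below the filter, the median of the remodelling genes was -0.01. The difference between these groups of genes was not tested. Within the 12 collagens the changes ran from -1.36 to 1.12. They ran from -0.60 to -0.09 in the 4 remodelling genes and from -0.70 to -0.19 in the 4 stellate markers. A span widens with the number of genes, and low genes appear to change less on this scale, so the widths cannot be compared.

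Many of the genes followed the same order among libraries of 1 diet. HFD replicate 3 was the highest HFD library for 27 of the 36 genes above 0 (75.0%), and HFD replicate 1 the lowest for 26 (72.2%). Over all genes tested these shares were 43.0% and 35.1%. With BT, replicate 3 was highest for 22 genes (61.1%) and replicate 1 lowest for 22 (61.1%), against 48.1% and 39.5% of all genes tested. The 36 genes include some below the filter, which the background leaves out. Over the 30 tested genes, the 2 HFD shares were 73.3% and 73.3%. The BT shares were 53.3% for replicate 3, near the 48.1% of all genes tested, and 63.3% for replicate 1. The summed FPKM of Col1a1, Col1a2 and Col3a1 was 12.1, 27.6 and 39.3 with HFD and 5.15, 8.06 and 13.9 with BT. Within each diet these sums thus spanned more than 2-fold, and HFD replicate 1 lay below BT replicate 3. The median SD within a diet was 0.284 for HFD and 0.219 for BT over the 30 tested genes on the log2 scale, against 0.180 and 0.112 over all genes tested.

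**Figure D3:**
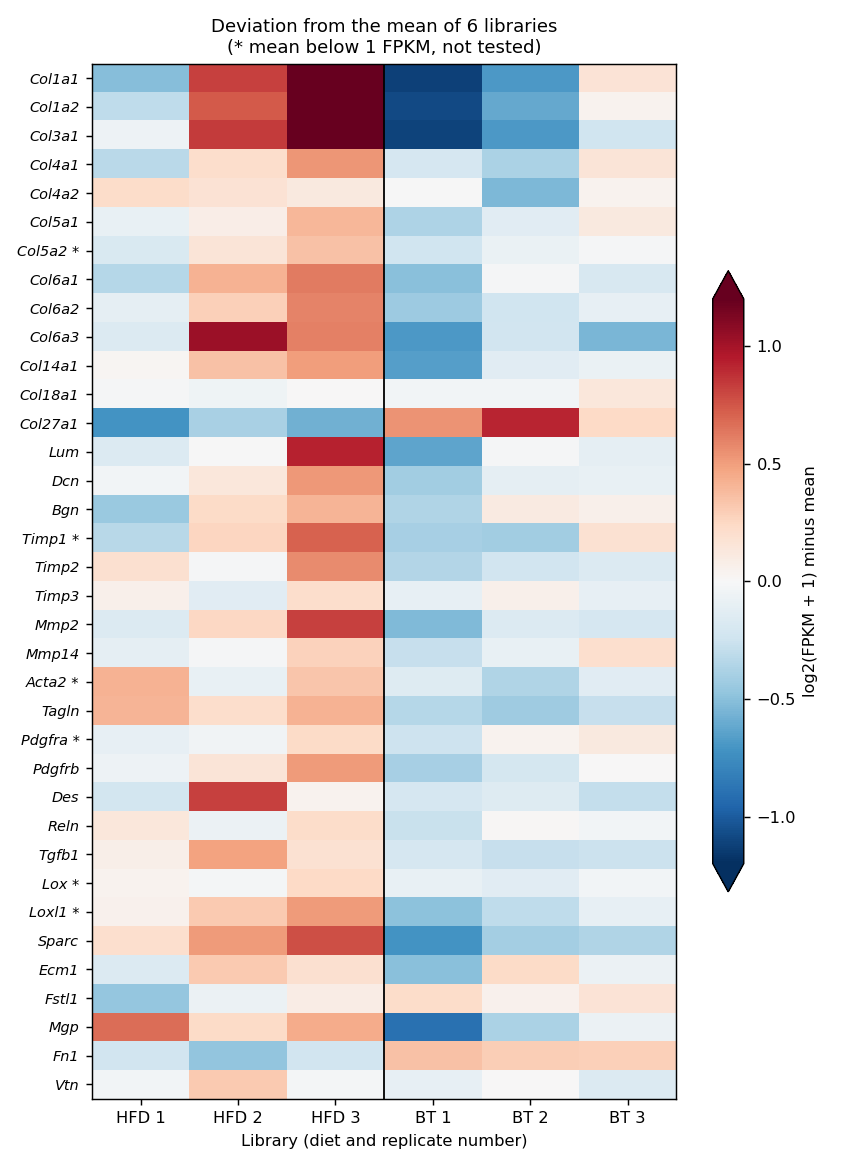
Deviation of each gene's log2(FPKM + 1) from its mean over the 6 libraries, for the 36 genes above 0 in rows and libraries in columns (red higher, blue lower, colours end at 1.2). Collagens I and III and Sparc are reddest in HFD replicates 2 and 3 and bluest in BT replicate 1, and Col27a1 and Fn1 show the opposite sides.

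Few genes of the wider pathway passed the test. Of 22 TGF-beta pathway genes listed, 21 were found by symbol in the table. Ctgf was not found, so nothing is said of it. Of the 21, 13 were tested and none passed, with a median of 0.06. Ltbp4, which tethers latent TGF-beta to matrix, had the smallest p and was at 12.9, 13.7 and 11.4 FPKM with HFD and at 6.72, 8.55 and 10.4 FPKM with BT (-0.53 ± 0.15, adjusted p = 0.0554). Of 4 PDGF ligand genes 2 were tested and none passed, and the smallest p belonged to Pdgfa (0.20 ± 0.15, adjusted p = 0.399), with exons of another gene over 26.1% of its exon bases. Over all genes tested, 7.33% fell and 6.01% rose. Near that share, 1 of 13 genes for folding and processing of collagen fell and none rose, with a median of 0.00. This was Serpinh1, the collagen-specific chaperone HSP47, at 5.32, 9.47 and 9.23 FPKM with HFD and at 3.26, 4.31 and 4.68 FPKM with BT (-0.80 ± 0.21, adjusted p = 0.0413). The Serpinh1 groups did not overlap, and it passed in 1 of 6 fits that left out a library. The call was also lost after scaling to one total (adjusted p = 0.0509), with no filter (0.103) and after the length and GC correction (0.0564).

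Other matrix proteases and regulators had 2 of 9 tested genes higher and none lower, where 6.01% and 7.33% of all genes tested were. Counts of 1 or 2 genes in such lists are too small to read further. Mmp15, a membrane-type metalloproteinase, was at 6.11, 4.70 and 5.79 FPKM with HFD and at 7.98, 8.15 and 8.67 FPKM with BT (0.51 ± 0.12, adjusted p = 0.0320). Plg, plasminogen, the hepatocyte precursor of plasmin, was at 518, 479.8 and 475 FPKM with HFD and at 647, 619 and 623 FPKM with BT (0.36 ± 0.10, adjusted p = 0.0471), and exons of Slc22a3 cover 11.3% of its exon bases. Of 11 matrix receptors tested 1 rose, Itga9, an integrin alpha chain that binds tenascin and osteopontin, at 1.00, 1.39 and 1.59 FPKM with HFD and at 2.18, 2.80 and 2.58 FPKM with BT (0.60 ± 0.14, adjusted p = 0.0325). Mmp15, Plg and Itga9 had BT values wholly above the HFD values, and they passed in 2, 1 and 1 of the 6 fits that left out a library. With no filter all 3 calls were lost (adjusted p = 0.0678, 0.0721 and 0.0721). Those of Mmp15 and Itga9 were lost after the length and GC correction (adjusted p = 0.0573 and 0.0784), and that of Plg with median-of-ratios scaling (0.148) and with no variance trend (0.0533). Of 7 other basement membrane genes none passed (median -0.26), with Nid1, nidogen, at the smallest p (-0.34 ± 0.17, adjusted p = 0.186).

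Further stellate cell markers outside the 37 genes had 2 of 13 tested lower and none higher, with 11 below 0 and a median of -0.32. Over all genes tested, 7.33% were lower, 6.01% higher and 40.8% below 0. The count of 2 is too small to read further. Colec11, a collectin, was at 19.8, 26.0 and 24.3 FPKM with HFD and at 13.4, 17.4 and 14.7 FPKM with BT (-0.59 ± 0.14, adjusted p = 0.0310). Hand2, a transcription factor of the stellate lineage, was at 1.78 to 2.32 FPKM with HFD and at 0.857 to 1.26 FPKM with BT (-0.53 ± 0.14, adjusted p = 0.0415). Neither overlapped between the diets, exons of Hand2os1 cover 19.6% of the exon bases of Hand2, and Colec11 passed in 1 and Hand2 in 0 of the 6 fits that left out a library. Both were lost with no filter (adjusted p = 0.0692 for Colec11 and 0.0747 for Hand2) and after the length and GC correction (0.113 and 0.0931). Hand2 was also lost after scaling to one total with and without Alb and mt-Co1 (0.0759 and 0.0566) and with the replicate block (0.0517). The summed level of the 17 markers was 69.9 to 98.9 FPKM with HFD and 54.0 to 66.9 FPKM with BT, so the sums did not overlap. This sum is weighted to its abundant genes and includes Colec11 at 13.4 to 26.0 FPKM. The gap between 66.9 and 69.9 FPKM is small beside that, so the separation does not describe the list as a whole.

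Markers of other liver cells were set beside these sums. The 13 sinusoidal endothelial markers summed to 113 to 132 FPKM with HFD and 90.8 to 119.8 FPKM with BT, and the 13 Kupffer cell and macrophage markers to 177 to 272 and 183 to 209 FPKM. Both overlapped, and none of the 12 genes tested in either list passed, with medians of -0.06 and -0.05. Of 8 hepatocyte markers other than Alb, none rose and 1 fell, where 6.01% and 7.33% of all genes tested did. The gene that fell was Ttr, a plasma carrier protein (-0.76, adjusted p = 0.0157). Its call was lost without any 1 BT library (adjusted p = 0.0569 to 0.0821) and with no filter (0.0706). Changes of the 8 ran from -0.76 to 0.58, with a median of -0.13. Their sum was 18587 to 23483 FPKM with HFD and 15213 to 16114 FPKM with BT, without overlap. Such a sum is weighted to its most abundant genes. Portal fibroblast and mesothelial markers summed to 6.66 to 9.01 and 4.88 to 6.89 FPKM over 11 genes, and those of vascular smooth muscle to 6.27 to 7.33 and 4.54 to 6.98 FPKM over 8 genes, with Myocd listed at 0 and Myh11 at or below 0.302 FPKM. Cholangiocyte markers summed to 10.3 to 12.9 and 8.01 to 11.1 FPKM over 8 genes, and red blood cell genes to 196 to 333 and 119 to 418 FPKM over 5. Of the 5 adipocyte genes, which summed to 54.9 to 196 FPKM with HFD and 144 to 218 FPKM with BT, Plin1 and Lep were above 0 in HFD replicate 1 only. The part of these cell types in the results was not tested.

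**Figure D4:**
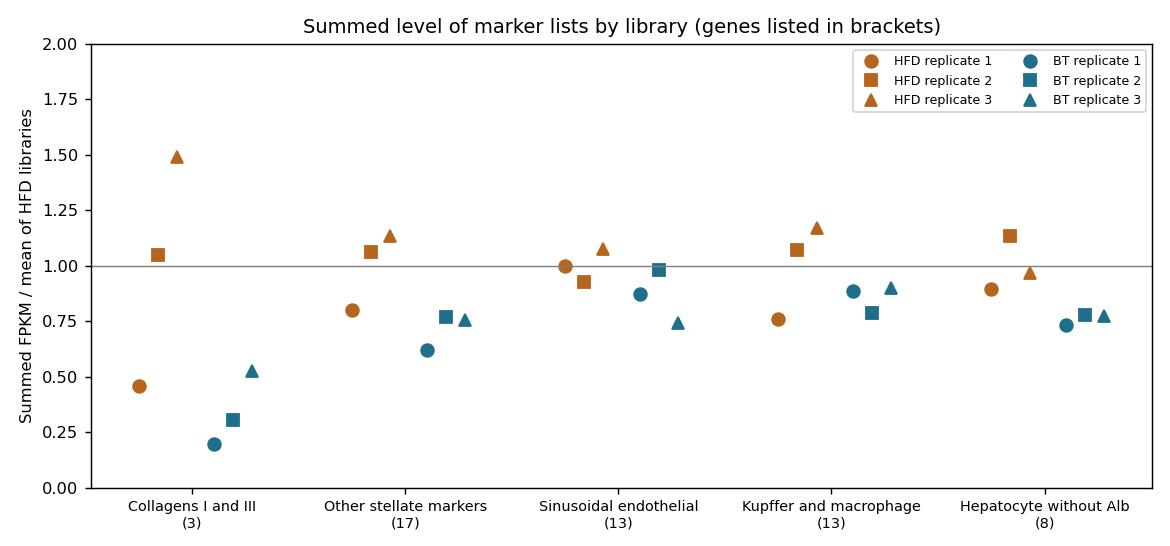
Summed FPKM of 5 gene lists in each library, divided by the mean of the 3 HFD libraries (points, coloured by diet and shaped by replicate number). The collagen I and III sum ranges widest. The sums of other stellate markers and of hepatocyte markers lie below every HFD library in all 3 BT libraries. The endothelial and Kupffer sums overlap between the diets. Each sum is weighted to its most abundant genes, and that of the other stellate markers includes Colec11.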

How the data were processed

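The authors deposited 1 table of gene expression in FPKM, with 1 column per library, and all 6 columns were used. Among the tools, the submitters' processing notes list STAR 2.4.0, Cufflinks 2.1.1 and CASAVA 1.8.2. For the genome build, the annotation and the strand of counting, the status is: not given in the sources used here. TruSeq libraries were made from mRNA, per the labels' protocols. Groups and replicate numbers come from the sample titles.

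Gene symbols, positions, transcript lengths and exon overlaps come from GENCODE M21 (GRCm38), which named 22671 of the 23474 gene identifiers. That build may not be the authors'. Values were tested as log2(FPKM + 1) where the mean over the 6 libraries reached 1 FPKM, with limma 3.58.1 in R 4.3.3 (lmFit, then eBayes with a variance trend, 4 residual degrees of freedom). Each test was two-sided. Adjusted p-values are Benjamini-Hochberg values over every gene in the fit, and those under 0.05 count as passed. No exact permutation test was made, since 3 against 3 libraries cannot reach a p under 0.1. Fragments per library were estimated from what 1 fragment is worth in genes with 1 transcript over 1000 bases (the median of FPKM times kilobases between 0.03 and 0.1). Fragments per gene use the longest transcript. The fit was tested on simulated data.

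The members and lists were chosen with earlier results of these data known. All 37 members are named. Of each pathway list, the called genes with the smallest p were named, up to 4, or otherwise the 1 with the smallest p, and of each cell type list the called genes, up to 3. Further values were named after they were seen. Python 3.11.15 and matplotlib 3.10.9 made the plots.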

Additional observations from a re-analysis of the deposited data

How the results depend on the processing

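Alternatives changed the number of calls more than the direction. The count of member genes lower with BT, 4, became 2 with no filter on low values, 2 with a filter of 5 FPKM (13 members tested), 8 with median-of-ratios scaling and 11 with a replicate block, and ran from 0 to 11 over the fits that left out 1 library. The count higher, 2, was 1 to 2 over those fits and 2 in all other settings. The median change of the members, -0.42, was -0.19 with the filter of 5 FPKM and -0.54 to -0.25 over the fits that left out 1 library. Over the whole table, 630 genes higher became 200 with no filter and 1361 when libraries were brought to one total without Alb and mt-Co1, an alternative chosen after seeing the data, and 48 to 857 with 1 library left out. The 768 lower became 345 with no filter and 446 after the length and GC correction, and 125 to 816 with 1 library left out. The rescaling without Alb and mt-Co1 moved the median of all genes from 0.07 to 0.19 and that of the members from -0.42 to -0.32. No called member changed sign in any setting. The cause of these shifts was not tested.

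The labels do not say that replicate numbers pair the libraries. Deviations from the group means correlated at 0.163, 0.097 and 0.147 for replicates 1, 2 and 3, and each library correlated best with its own number. Deviations from a mean of 3 libraries depend on each other, so these correlations cannot decide whether the libraries are paired. With the replicate block the members had 11 lower and 2 higher, and all genes tested 949 and 859. Depth limits Lox, Mgp, Acta2, Loxl1 and Timp1 most, with an estimated 1.34 to 9.83 fragments in their lowest library.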
